A study of Mus musculus with 3 samples.

Results

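miR-206 and miR-133b are skeletal muscle miRNAs cut from neighbouring hairpins on mouse chromosome 1, and both strands of each hairpin can be sequenced. They were chosen by name, as the 5p and 3p arms mmu-miR-206-5p, mmu-miR-206-3p, mmu-miR-133b-5p and mmu-miR-133b-3p, which are 4 of the 1138 mature miRNAs listed for each library. The small RNA libraries were made from tibialis anterior (TA), a fast muscle of the hindlimb, of wild type C57BL/6 mice labelled as 10 weeks old, and male per the study's methods. The libraries were taken on day 0, day 1 and day 3 after cardiotoxin (CTX), a toxin that breaks down myofibers and so sets off regeneration, was injected. The labels give 30 mL of 10 mM CTX for the injection, whereas the study's methods give 30 μl of 10 μM. The study calls the muscles of day 0 uninjured and used saline as its control injection, without saying whether these muscles received it. RNA of 4 samples was pooled into 1 library at each time point, so that there were 3 libraries without replicates.

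miRNAs are short RNAs that pair with mRNAs, mainly through the seed (bases 2 to 8 from the 5′ end), and lower the output of these mRNAs. miR-206 is a myomiR, a miRNA made almost only in muscle cells. It is induced by the myogenic factors MyoD and myogenin, and its known targets include Pax7, a factor of muscle stem cells, and Hdac4, a histone deacetylase. miR-206-3p has the seed of miR-1a-3p, the main miRNA of mature myofibers, and miR-133b-3p has that of miR-133a-3p. One arm of a hairpin is usually loaded into the silencing complex, and the other arm is mostly degraded.

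The mature sequences are shown because each arm carries a seed of its own, given here in capitals. They are from RefSeq on GRCm38.p6, which held all 4 arms and 953 of the 1138 listed miRNAs.
mmu-miR-206-3p: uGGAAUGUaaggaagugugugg
mmu-miR-206-5p: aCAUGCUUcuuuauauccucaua
mmu-miR-133b-3p: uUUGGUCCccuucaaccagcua
mmu-miR-133b-5p: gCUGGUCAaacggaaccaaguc

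No pair among these 4 sequences shared a seed. Aligned base by base from the 5′ end, pairs of arms differed at between 11 and 19 positions. Of the other mature miRNAs in the RefSeq table, miR-6349 and miR-6382 had the seed of miR-206-3p, and neither was listed in the libraries. miR-1a-3p and miR-133a-3p were not part of this comparison, and their seeds are given above as background.

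The hairpins are shown with their mature arms in capitals, since the ratio of the arms differed between them in these libraries.
Mir206: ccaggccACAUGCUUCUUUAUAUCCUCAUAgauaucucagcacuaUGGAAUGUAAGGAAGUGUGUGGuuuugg
Mir133b: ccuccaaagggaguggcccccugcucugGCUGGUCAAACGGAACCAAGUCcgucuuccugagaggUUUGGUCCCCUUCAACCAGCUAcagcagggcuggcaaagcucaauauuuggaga

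On GRCm38.p6, Mir206 (73 bases) lies at chr1:20679010-20679082 and Mir133b (119 bases) at chr1:20682769-20682887, both on the plus strand with 3686 bases between them. In the GENCODE M21 annotation of GRCm38, both lie within the noncoding RNA gene Gm28653 (RefSeq Lincmd1), a muscle RNA known as linc-MD1, which spans chr1:20669882-20684298 on the same strand. Mir133b falls entirely into exon 3 of its spliced transcript. Mir206 lies in an intron of that transcript, and 60 of its 73 bases overlap the only exon of the unspliced transcript, which also holds Mir133b.

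The 300 bases around the annotated start of Lincmd1, chr1:20669632-20669931 on the plus strand of GRCm38.p6, are shown because this gene holds both hairpins. The capitals mark CANNTG, the E-box that MyoD and other factors of its class bind, which reads the same on both strands.
Lincmd1: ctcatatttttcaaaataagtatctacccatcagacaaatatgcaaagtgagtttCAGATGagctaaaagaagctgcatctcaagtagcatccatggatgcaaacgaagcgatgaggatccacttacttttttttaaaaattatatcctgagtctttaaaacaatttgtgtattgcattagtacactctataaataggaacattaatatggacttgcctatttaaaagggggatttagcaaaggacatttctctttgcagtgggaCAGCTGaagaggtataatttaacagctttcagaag

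This window held CANNTG 2 times, and 1 of these was CAGCTG. Of the 32851 promoter windows of this length, 72.3% held at least 1 CANNTG, 39.6% held at least 2, and 16.3% held CAGCTG. The motif is therefore common, and a match is not a binding site.

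The libraries of days 0, 1 and 3 held 8507580, 6421056 and 9795076 reads. Levels are given as CPM, the reads of a miRNA per 1000000 reads of its library. This is a share, so that it rises for other miRNAs when an abundant one is lost. Brackets give 95% Wilson intervals for levels and shares and 95% Wald intervals for log2 fold changes. They cover counting error only, since the spread between mice cannot be estimated from 1 pooled library per day. A level of 3 reads, taken as the limit of detection, corresponded to 0.353, 0.467 and 0.306 CPM in the libraries of days 0, 1 and 3.

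miR-206-3p was lower on day 1 and was the most abundant of all miRNAs on day 3. It had 105359 reads on day 0, 30697 a day after injury and 1763128 on day 3. This was a level of 12384 CPM (12310 to 12459) on day 0, of 4781 CPM (4728 to 4834) on day 1 and of 180001 CPM (179761 to 180242) on day 3. The day 3 library was thus the highest and the day 1 library the lowest, and the intervals were far apart. By abundance the arm moved from rank 10 to rank 36 and then to rank 1, and it held 18.0% of the reads on day 3. Against day 0, its log2 fold change on day 1 was -1.37 (-1.39 to -1.35) and that on day 3 was 3.86 (3.85 to 3.87), a level 2.59-fold lower and then 14.5-fold higher. From day 1 to day 3 the level rose 37.7-fold. Other scalings kept both directions but moved the sizes. With edgeR's TMM factors the log2 fold changes on days 1 and 3 were -2.32 and 2.94. With DESeq2's median-of-ratios factors they were -2.41 and 2.74.

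miR-206-5p, the other arm of this hairpin, was barely sequenced. It had 0 reads on day 0, which allows a level of up to 0.353 CPM, and 2 reads on day 1, a number at or under the detection limit, so that no fold is given between these days. On day 3 it had 148 reads or 15.1 CPM (12.9 to 17.7), at least 42.8-fold higher than day 0 set to 3 reads. On the log2 scale this bound was 5.42 with library totals, 4.49 with edgeR's TMM factors and 4.30 with DESeq2's median-of-ratios factors. Against the 2 reads of day 1, the ratio of levels was 48.5, with an exact interval of 3.72 to 8.66 on the log2 scale, where the value was 3.62 with 1 CPM added to each level. Detection of this arm was thus clear on day 3 alone, where it ranked 304 of 987 detected miRNAs.

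miR-133b-3p was also lower on day 1 but returned only to about its starting share. It had 10552, 1585 and 16099 reads in the libraries of days 0, 1 and 3. The level was 1240 CPM (1217 to 1264), 247 CPM (235 to 259) and 1644 CPM (1618 to 1669), which ranked 45, 117 and 57 among all miRNAs. Against day 0, the log2 fold change on day 1 was -2.33 (-2.41 to -2.25), a level 5.02-fold lower, and that on day 3 was 0.41 (0.37 to 0.44), which is under 2-fold. The direction on day 3 depended on how the libraries were scaled. It was -0.52 with edgeR's TMM factors, -0.71 with DESeq2's median-of-ratios factors and -0.27 once the 10 most read miRNAs were kept out of the totals. The lower level on day 1 had the same direction under every scaling tried.

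miR-133b-5p went from near the limit of detection to an abundant miRNA. It had 10 and 28 reads in the first libraries, of days 0 and 1, and 8779 in that of day 3. The level was 1.18 CPM (0.638 to 2.16), 4.36 CPM (3.02 to 6.30) and 896 CPM (878 to 915), and the rank moved from 412 to 385 and then to 71. The intervals of the 3 libraries did not overlap, although those of days 0 and 1 rest on few reads. Against day 0, the log2 fold change on day 1 was 1.89 (0.85 to 2.93) and that on day 3 was 9.57 (8.68 to 10.47). On day 3 it was the highest of the 569 miRNAs compared, and the level was 206-fold that of day 1. With median-of-ratios factors, the lowest value among the scalings tried, the log2 fold change on day 3 was 8.46.

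**Figure D1:**
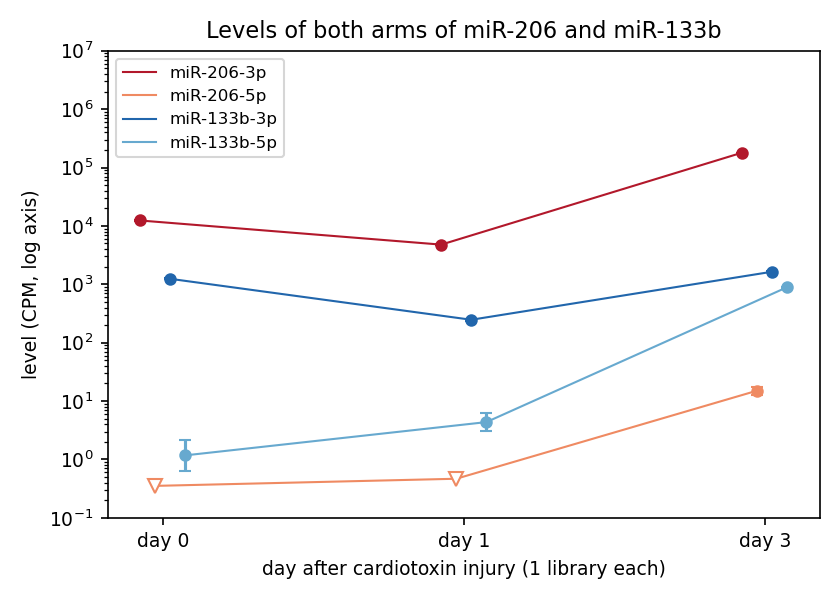
Level of each arm (CPM, log axis) in the libraries of days 0, 1 and 3, with 95% counting intervals that are often smaller than the points, and open triangles at the limit of 3 reads for miR-206-5p on days 0 and 1. Both 3p arms are lowest on day 1, at 4781 and 247 CPM, whereas miR-133b-5p is higher on each later day and reaches 896 CPM.

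On each day the order of the arms was the same, with miR-206-3p highest, then miR-133b-3p, miR-133b-5p and miR-206-5p. The arms are of 22 or 23 bases, so that reads need no correction for length, but how well each sequence is ligated and amplified is not known. The reads of miR-206-3p were 9.98, 19.4 and 110 times those of miR-133b-3p on days 0, 1 and 3. For the 5p arms the order of the hairpins was the opposite, with 59.3 reads of miR-133b-5p for each read of miR-206-5p on day 3.

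Beside all miRNAs with at least 10 reads in 1 of the compared libraries, the arms were set against a 2-fold change. On day 1, 3 of the 4 arms met this minimum, miR-133b-5p was up, and miR-206-3p and miR-133b-3p were down. The call of miR-133b-5p on day 1 was lost under 3 scalings, with a log2 fold change of 0.95 by TMM, 0.85 by median of ratios and 0.99 without the 10 most read miRNAs in the totals. Of all 532 miRNAs compared, 55.3% were up and 12% were down. On day 3, 3 of the 4 arms were up and none was down, while 58.5% of 569 miRNAs were up and 10% were down. Between days 1 and 3, all 4 arms were up, while 25% of 583 miRNAs were up and 17.7% were down. The median log2 fold change of the arms compared was -1.37 on day 1 and 4.64 on day 3, with miR-206-5p at its bound. The median over all miRNAs compared was 1.28 for day 1 and 1.47 for day 3. Among the 532 miRNAs of day 1, 8 had a lower value than miR-133b-3p and 43 a lower value than miR-206-3p. On day 3, 73 of the 569 had a higher value than miR-206-3p. These counts describe single libraries and have no replicate check.

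The share of upward changes rested on the scaling. It was 82.1% of the changes on day 1 and 85.4% on day 3 with library totals, 59.2% and 64.0% with TMM factors, and 56.1% and 58.7% with median-of-ratios factors. TMM factors moved every log2 fold change by -0.94 on day 1 and -0.93 on day 3. Relative to the median of all miRNAs, miR-206-3p and miR-133b-3p on day 1 were thus further down than their CPM show.

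The reads of both arms together followed miR-206-3p for the miR-206 hairpin, whereas for miR-133b the 5p arm added a large part on day 3. Both arms of miR-133b summed to 1241, 251 and 2540 CPM on days 0, 1 and 3, a log2 fold change of 1.03 on day 3 (1.00 to 1.07). Without the 5p arm this value was 0.41. The value for both arms was 0.11 with TMM factors, 0.36 without the 10 most read miRNAs in the totals and -0.087 with median-of-ratios factors, so that neither its call nor its direction held under each scaling.

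The 5p share of the miR-133b hairpin rose at each time point. Of the reads of both arms, it was 0.0947% (0.0514 to 0.174) on day 0, 1.74% (1.20 to 2.50) a day later and 35.3% (34.7 to 35.9) on day 3. The 3 intervals did not overlap. One read of the 5p arm was found for 1055, for 56.6 and for 1.83 reads of the 3p arm on days 0, 1 and 3. Against day 0, the log2 odds ratio of day 1 was 4.22 (3.18 to 5.26) and that of day 3 was 9.17 (8.27 to 10.06). This share is taken within a library, so the scaling of the libraries cannot move it. In the expression values that the authors deposited beside the reads, the share was 0.103%, 1.75% and 36.2%.

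The 5p share of the miR-206 hairpin stayed very low. It was 0 of 105359 reads on day 0, which at the limit of 3 reads allows a share of up to 0.00285%, and 2 of 30699 reads on day 1 or 0.00651% (0.00179 to 0.0238). On day 3 it was 148 of 1763276 reads or 0.00839% (0.00715 to 0.00986). In the reads, a difference was not detectable at this depth between days 1 and 3, where the log2 odds ratio was 0.37 (-1.65 to 2.38). Against day 0, the interval of day 3 lay above the limit of 0.00285%. For miR-206 the 3p arm therefore held nearly all reads on every day. In the deposited expression values the 5p share on day 3 was higher, at 0.0861%. There it was 0.00766% on day 1, from an expression value of 2 for the 5p arm. How the days compare thus depended on the column used.

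miR-133a, whose 3p arm shares its seed with miR-133b-3p, was read in the same way. miR-133a-5p had 20, 7 and 14 reads on days 0, 1 and 3, which was 0.00909%, 0.00892% and 0.0195% of both arms of miR-133a. The log2 odds ratio of miR-133a on day 3 was 1.10 (0.11 to 2.08), against 9.17 for miR-133b. On day 3 there were 627 reads of miR-133b-5p for each read of miR-133a-5p, and on day 0 there were 0.50. The counted reads of miR-133b-5p were thus not mirrored in miR-133a-5p.

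**Figure D2:**
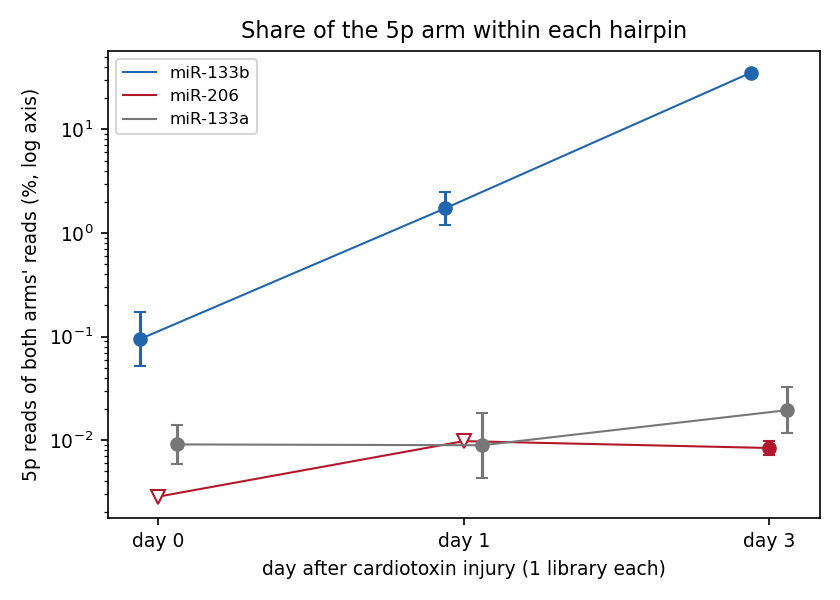
Reads of the 5p arm as a percentage of the reads of both arms (log axis) for miR-133b, miR-206 and miR-133a on days 0, 1 and 3, with 95% Wilson intervals and open triangles at the limit of 3 reads. The share of miR-133b rises from 0.0947% to 35.3%, and those of miR-206 and miR-133a stay under 0.02% on each day.

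The arm ratio of all hairpins with both arms listed and at least 50 reads in each compared library gave the background, with 0.5 read added to each arm. Against day 0, the ratio moved at least 4-fold towards 5p in 8.77% of 171 hairpins for day 1 and in 11.4% of 175 for day 3. It moved as far towards 3p in 9.36% and 12% of them. Between days 1 and 3, 9.64% of 197 hairpins moved towards 5p and 6.6% towards 3p. miR-133b was past 4-fold towards 5p in all 3 comparisons. Its log2 shift of 9.10 on day 3 was the largest of the 175 in either direction. On day 1 its log2 shift of 4.18 was exceeded in size by 3 of the 171. The shift of miR-206 against day 0 is not given, since its 5p arm had 0 reads on day 0.

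**Figure D3:**
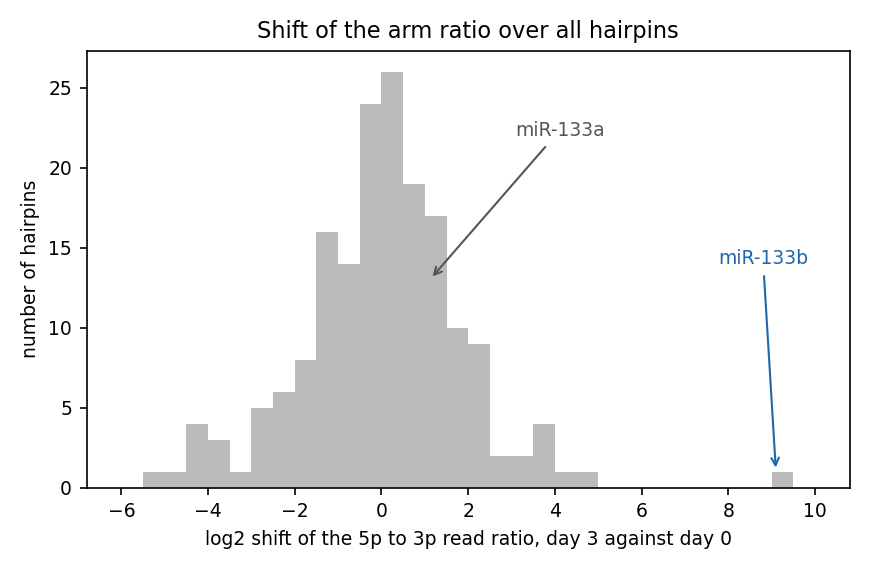
Number of hairpins by the log2 shift of their 5p to 3p read ratio from day 0 to day 3, for 175 hairpins with at least 50 reads in both libraries. miR-133b, at 9.10, lies apart from the other hairpins, whereas miR-133a, at 1.11, lies among them.

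miR-206-3p was set beside its relatives miR-1a-3p and miR-1b-3p, grouped by name and not by a comparison of sequences. miR-1a-3p led this group on days 0 and 1, and miR-206-3p on day 3, while miR-1b-3p had 8 reads or fewer on each day. Of the reads of miR-206-3p, miR-1a-3p and miR-1b-3p, miR-206-3p made up 5.03% (5.01 to 5.06) on day 0, 6.08% (6.02 to 6.15) on day 1 and 67.1% (67.1 to 67.2) on day 3. For each read of miR-206-3p there were 18.9, 15.4 and 0.489 reads of miR-1a-3p on days 0, 1 and 3. miR-1a-3p went from 233587 CPM on day 0 to 73841 on day 1 and 88096 on day 3. The sum of the group was 24.6%, 7.86% and 26.8% of the library in the same order. The log2 fold change of the sum on day 3 was 0.12 with library totals, -0.80 by TMM, -0.995 by median of ratios and -0.55 without the 10 most read miRNAs in the totals, so its direction depended on the scaling. The shares within the group do not. In the deposited expression values the share of miR-206-3p was 28.2%, 16.3% and 52.5% on days 0, 1 and 3. From day 0 to day 1 the share thus fell in these values and rose in the reads. It was highest on day 3 in both.

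Within the miR-133 pair the same arm became more frequent without taking the lead. Of the reads of miR-133b-3p and miR-133a-3p, miR-133b-3p made up 4.58% (4.49 to 4.66) on day 0, 1.98% (1.89 to 2.08) on day 1 and 18.3% (18.0 to 18.6) on day 3. miR-133a-3p fell from 25869 CPM to 12222 on day 1 and 7340 on day 3. This is a log2 fold change of -1.08 for day 1 and of -1.82 for day 3. miR-133b-3p was the lower of the pair on each day, and on day 1 it had fallen further than miR-133a-3p. The mature sequences of the pair are close to identical, so reads could be divided between them in counting. No other listed miRNA had the same reads as a member in the 3 libraries, whereas miR-486a-5p and miR-486b-5p had identical reads. With the reads of the pair summed, the log2 fold change of day 1 was -1.12 and that of day 3 -1.59, values that mostly follow miR-133a-3p, which had 20.9, 49.5 and 4.47 times the reads of miR-133b-3p on days 0, 1 and 3. How many reads were divided between them was not tested.

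**Figure D4:**
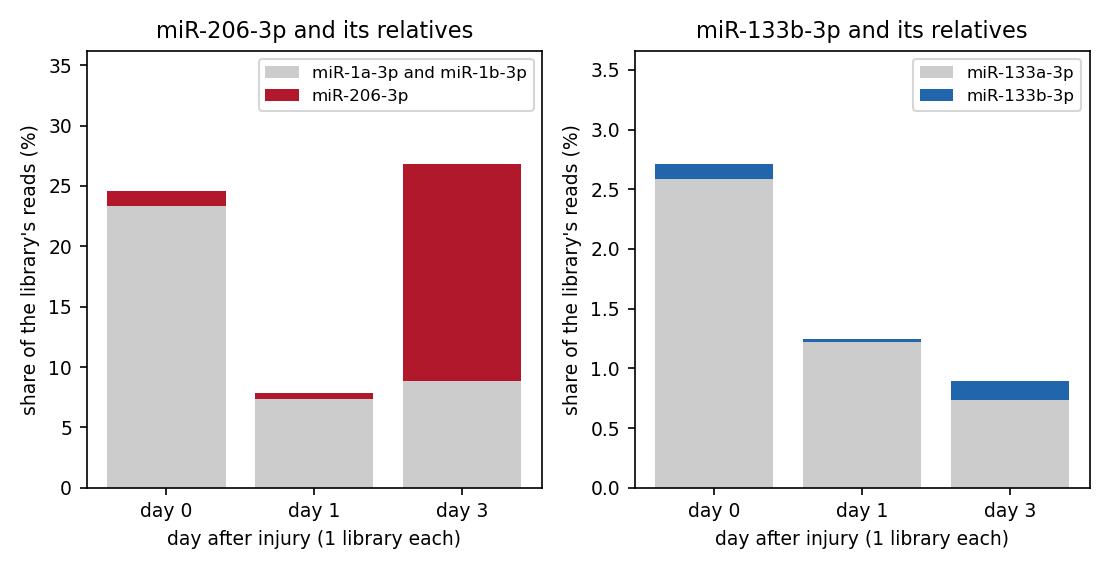
Share of the library's reads (%) held by miR-206-3p with miR-1a-3p and miR-1b-3p, and by miR-133b-3p with miR-133a-3p, on days 0, 1 and 3. The bars of the miR-206 group stand at 24.6% and 26.8% of the reads on days 0 and 3, and miR-206-3p fills 67.1% of the last one, and the bars of the miR-133 pair fall from 2.71% to 0.898%.

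Other muscle miRNAs were also mostly lower on day 1, as both 3p arms were, but on day 3 they were still mostly below day 0, when miR-206-3p was higher. Of a list of 18 myofiber miRNAs, such as miR-1a, miR-133a, miR-208, miR-499 and miR-486, 15 were listed in the libraries. On day 1, 9 of the 11 with enough reads were at least 2-fold down and none was up, beside 12% of all miRNAs down. On day 3, 9 of 12 were down, beside 10% of all, and 1 was up, which was miR-208b-3p with 4 and 10 reads. The median log2 fold change of the list was -1.26 for day 1 and -1.46 for day 3. miR-486a-5p and miR-486b-5p, with identical reads, count as 2 members here, and counted once the list had 8 of 10 down on day 1 and 8 of 11 on day 3. miR-499-5p, from an intron of a slow myosin gene, was at 316, 184 and 80.2 CPM on days 0, 1 and 3. Together the list took up 28.8%, 9.44% and 10.3% of the reads of days 0, 1 and 3. Its defining members miR-1a-3p and miR-133a-3p were present in all 3 libraries, with at least 71895 reads in each. In these bulk samples, fewer cells of a type and less RNA per cell cannot be told apart.

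A second list held 12 miRNAs linked to activated myogenic cells or to MyoD (miR-31, miR-675, miR-322, miR-503, miR-351 and miR-378a, both arms). On day 1, 7 were up and 3 down, with a median log2 fold change of 1.28, close to that of all miRNAs compared. On day 3, 7 were up and 1 down, with a median of 2.48. Of the list, 58.3% were thus up on each day, beside 55.3% and 58.5% of all miRNAs. With TMM factors the list had 16.7% up on day 1 and 58.3% on day 3, beside 35.2% and 39.4% of all. Between days 1 and 3, 7 of the 12 were up and 1 down, beside 25% and 17.7% of all. How far the list stood apart thus depended on the scaling and the days compared. The one that was down on day 3 was miR-378a-3p, at -2.07. Together the list took up 9.97%, 6.39% and 3.01% of the reads of days 0, 1 and 3. Its summed share thus fell, and miR-378a-3p alone held 9.36%, 5.72% and 2.23% of the reads. miR-31-5p went from 45 reads on day 0 to 127 on day 1 and 7503 on day 3.

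The last list held leukocyte miRNAs. Of 9 such arms, including miR-223-3p of myeloid cells and miR-142a-3p of blood cells, 6 were up and none down on each day, or 66.7%, beside 55.3% and 58.5% of all miRNAs. With TMM factors the same share of the list was up on both days, beside 35.2% and 39.4% of all, and 22.2% of the list and 22.1% of all were down on day 3. How far the list stood apart thus depended on the scaling. Their summed share of the reads was 0.550%, 2.16% and 1.01% on days 0, 1 and 3, and none of them was at 0 reads in any library. The summed share was thus highest on day 1, when miR-206-3p and miR-133b-3p were lowest, and miR-223-3p and miR-150-5p, at 7815 and 8307 CPM, made up most of it. miR-146a-5p and miR-342-3p were instead highest on day 3, and the list's median log2 fold change was 2.54 for day 1 and 2.87 for day 3. The part of these cells in the lower level of the 3p arms was not tested.

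The miRNAs nearest to an arm were found in the plane of the log2 fold changes of days 1 and 3, with 1 CPM added to each level, among 344 miRNAs with at least 100 reads in a library. This likeness rests on 3 libraries that share day 0 and is a description. Nearest to miR-206-3p was miR-675-5p, from the imprinted H19 RNA, at a distance of 0.96, with 67, 15 and 641 reads. It was followed by miR-483-5p, miR-183-5p, miR-483-3p and miR-128-2-5p at up to 1.45. miR-128-2-5p had 1, 1 and 119 reads, so its place is set largely by the 1 CPM added and shows no likeness. For miR-206-5p no neighbours are given, since its place in the plane is set by the 1 CPM added to its 0 and 2 reads. Nearest to miR-133b-3p were miR-615-3p, miR-381-5p, miR-149-5p, miR-381-3p and miR-543-5p, at 0.45 to 1.21.
miR-133b-5p had no close neighbour. Nearest were miR-31-5p at 1.81 and miR-31-3p at 2.55, then miR-335-3p, miR-351-5p and miR-182-5p at up to 3.67. miR-31-5p rose by 6.93 on this scale on day 3, and miR-133b-5p by 8.69.

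**Figure D5:**
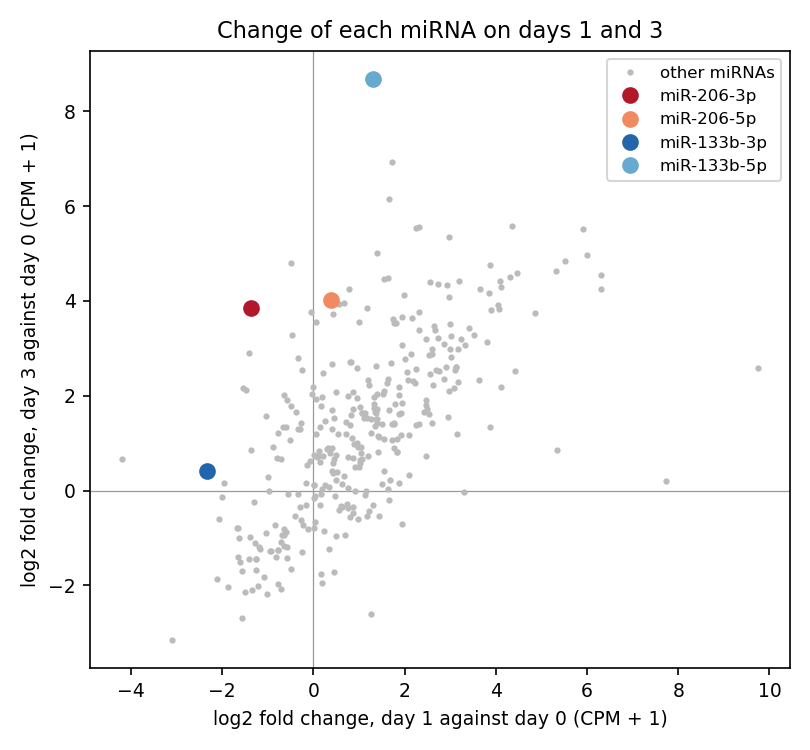
Log2 fold change on day 1 (x axis) and day 3 (y axis) against day 0, with 1 CPM added to each level, for 344 miRNAs with at least 100 reads in a library. miR-206-3p lies at -1.37 and 3.86, down on day 1 and up on day 3, and miR-133b-5p lies highest, at 8.69.

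The deposited expression values gave a smaller rise of miR-206-3p. They were 63257, 26123 and 168191 on days 0, 1 and 3, which was 60.0%, 85.1% and 9.54% of the reads. From these values, not divided by a library total, the log2 fold change of miR-206-3p was -1.28 for day 1 and 1.41 for day 3. The reads, scaled by library totals, gave 3.86 for day 3. Between days 1 and 3 the expression values gave 2.69 and the scaled reads 5.23. For miR-133b-5p the expression values were 10, 28 and 8326, close to the reads. Low percentages were also found for miR-1a-3p, at 8.09%, 28.2% and 17.6% of its reads on days 0, 1 and 3. For miR-133b-3p the percentages were 92.4%, 99.2% and 91.1%. For miR-206-3p, both the deposited column and the scaling differed between 1.41 and 3.86. Undivided, its reads were 105359 on day 0 and 1763128 on day 3, beside expression values of 63257 and 168191. The smaller rise in the expression values was thus also there without scaling. The direction was the same with both columns.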

How the data were processed

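The members and lists were chosen with earlier results of these data known. Small RNAs were sequenced at BGI, per the study's methods. The submitters' processing notes name HISAT, Bowtie2 and GRCm38.p6. The counting tool is not given in the sources used here. For each mature miRNA the authors deposited a read count without normalization and an expression value, treated as a score, a whole number that never exceeded the read count. How that score was made is not given in the sources used here.

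Read counts were divided by the library total. With 1 library per time point, no test between conditions was possible. Fisher's exact test on the reads was an alternative for the counts of miRNAs only and compares libraries. A change of 2-fold was the threshold, for miRNAs with at least 10 reads in 1 of the 2 libraries. A library at 0 reads was set to 3 reads. Named besides the members were the myofiber list, miRNAs with a member's seed, the 5 nearest miRNAs of each member (not printed for miR-206-5p), the 3 hairpins with the largest arm shift in each comparison and the most abundant miRNA of each library. The miRNAs named from the other 2 lists were chosen after their values were seen. The scripts were tested on simulated data. edgeR 4.0.16 and DESeq2 1.42.0, run in R 4.3.3, gave scaling factors only. All else was computed in Python 3.11.15 with pandas 2.3.3 and numpy 2.4.6, intervals with scipy 1.17.1 and plots with matplotlib 3.10.9. Sequences are from RefSeq and gene models from GENCODE M21.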

Additional observations from a re-analysis of the deposited data

Results flagged for a closer look

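miR-206-3p changed in opposite directions at the 2 time points after injury. Its log2 fold change against day 0 was -1.37 on day 1 and 3.86 on day 3, from 105359 reads on day 0 to 30697 and then 1763128. The difference between the days was not tested, since each day has 1 library and both values share the library of day 0.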

How the results depend on the processing

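No paired analysis was possible because each time point has 1 library, and for the same reason no library could be left out. With edgeR's TMM factors, the log2 fold change of miR-206-3p was -2.32 for day 1 and 2.94 for day 3, that of miR-133b-3p -3.27 and -0.52, and that of miR-133b-5p on day 3 was 8.65. With DESeq2's median-of-ratios factors these values were -2.41, 2.74, -3.37, -0.71 and 8.46. Once the 10 most read miRNAs of any library were kept out of the totals, miR-206-3p was at -2.28 and 3.19 and miR-133b-3p at -3.23 and -0.27. With totals without the 4 members, miR-206-3p was at 4.13 and miR-133b-3p at 0.68 on day 3. With the deposited expression values, not divided by a library total, miR-206-3p was at -1.28 and 1.41 and miR-133b-3p at -2.63 and 0.59. These values thus differ from the main ones in both column and scaling. Summed with miR-133a-3p, miR-133b-3p was at -1.12 and -1.59, and at -0.47 between days 1 and 3, a reversal of 2.74. These sums hold the reads of miR-133a-3p, which outnumber those of miR-133b-3p on each day.

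The miRNAs at least 2-fold up and down were 294 and 64 on day 1 and 333 and 57 on day 3. With TMM factors, 187 were up and 129 down on day 1, and 126 were down on day 3. The median-of-ratios factors gave 176, 138 and 141, with 200 up on day 3. Without the 10 most read, 191 were up and 126 down on day 1, and 109 were down on day 3. With a minimum of 100 reads, 152 were up and 37 down on day 1, and 195 were up on day 3. With a minimum of 1 read, 90 were down on day 3. With a fold of 4 the counts were 180, 12, 214 and 18. Hairpins past a 4-fold arm shift on day 1 numbered 31, and 17 with a minimum of 200 reads.

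With the expression values, the 5p share on day 3 was 0.0861% for miR-206 and 36.2% for miR-133b. The share of miR-206-3p among miR-206-3p, miR-1a-3p and miR-1b-3p was 28.2%, 16.3% and 52.5% on days 0, 1 and 3, and that of miR-133b-3p in its pair was 9.48%, 2.81% and 22.6%. The cause of these differences was not tested. Alternatives chosen after seeing the data were the scalings of the summed arms, of the summed relatives and of the lists, and rows with equal reads counted once. Among them, both arms of miR-133b on day 3 went from 1.03 to -0.087 with median-of-ratios factors, 58 other values moved and 79 did not. Of the other alternatives for the values above, 54 left them within their counting interval or within 1.5 times. For further single values, such as the other folds of the members, 50 stayed so and 16 moved. Depth limits miR-206-5p on days 0 and 1 and miR-133b-5p on day 0, which had 10 reads or fewer.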

Other observations

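Large shifts between the arms of a hairpin were also found outside miR-133b. On day 1, miR-532 had the largest shift, a log2 value of 5.96 towards 5p, from 28 reads of miR-532-5p and 32 of miR-532-3p to 23696 and 435. miR-21a shifted by -4.34, towards 3p, and miR-744 by -4.24. On day 3 against day 0, miR-409 shifted by -5.34 and let-7i by 4.86, after miR-133b at 9.10. Between days 1 and 3, miR-532 shifted by -7.52, miR-744 by 5.58 and miR-133b by 4.92. In the library of day 0, miR-1a-3p led with 23.4% of its reads, and on day 1 miR-22-3p led with 12.9%.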
